A study of Homo sapiens with 20 samples.

Results

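Box C/D and box H/ACA small nucleolar RNAs (snoRNAs) were examined as the rows of the gene count tables whose symbol begins with SNORD or SNORA followed by a digit and whose count, summed over the 20 count columns, was at least 20. Of 805 rows with such a symbol, 88 met the minimum, 43 named SNORA and 45 named SNORD, against 18711 of 57773 rows in the whole table. The rows were thus chosen by their measured counts, and being detected is not a result. Just inside the minimum were SNORD125 with 22 counts, 1 of the SNORD63 rows with 21, and SNORD116-2 and SNORD3B-1 with 20 each. Just outside were SNORA72, a second SNORA66 row and SNORD19B with 19 counts each and SNORD7 with 18. Of the remaining named rows, 590 had no count in any column and 127 had between 1 and 19.

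The RNA came from LNCaP, a human prostate cancer cell line, in 2 experiments on EHMT1, also called GLP, a histone lysine methyltransferase. In the first, parental LNCaP cells received 20 nM of a non-targeting siRNA (siNTC) or of siRNA against EHMT1 (siEHMT1) for 2 days, with 2 samples of each. In the second, 4 puromycin-selected LNCaP lines carrying a lentiviral, tetracycline-inducible EHMT1 open reading frame, either wild type (WT) or with lysine-to-arginine changes named K450R, K451R and K450RK451R, were left uninduced (Veh) or given doxycycline at 0.25 µg/mL for 2 days (Dox). Each line is 1 transduced population that also keeps its own EHMT1 gene, and none of these samples is a line without the transgene given doxycycline, so the drug and the induced protein cannot be told apart.

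Box C/D snoRNAs guide 2′-O-methylation of ribosomal and spliceosomal RNA and carry a C box near the 5′ end and a D box near the 3′ end, while box H/ACA snoRNAs guide the isomerization of uridine to pseudouridine and fold into a pair of hairpins joined by the H box and followed by an ACA triplet. Most human snoRNAs are cut out of introns of host genes, many of which encode ribosomal proteins or non-coding RNAs. A few, among them U3 (SNORD3), U8 (SNORD118) and U17 (SNORA73), act in cleavage of the ribosomal RNA precursor. U3 and U13 (SNORD13) are among those transcribed from genes of their own.

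The sequences below are those of the most abundant rows with a snoRNA-sized gene model and of the rows that the comparisons turn on, read 5′ to 3′ on the transcribed strand of GRCh37 with the GENCODE 44 gene models. SNORA73B lies at chr1:28835071-28835274 on the plus strand in an intron of SNHG3 and RCC1, SNORA71A at chr20:37055952-37056085 and SNORA71D at chr20:37062508-37062641 on the minus strand within SNHG17, SNORA7B at chr3:129116053-129116191 on the minus strand, and SNORA54 at chr11:2985001-2985123 on the minus strand in an intron of NAP1L4. Capitals mark the first ANANNA run in the middle of the model and the last ACA of its end.
SNORA73B: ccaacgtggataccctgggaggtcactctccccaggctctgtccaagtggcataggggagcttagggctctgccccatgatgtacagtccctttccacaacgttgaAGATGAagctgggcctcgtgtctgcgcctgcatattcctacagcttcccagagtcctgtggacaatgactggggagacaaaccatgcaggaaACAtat
SNORA71A: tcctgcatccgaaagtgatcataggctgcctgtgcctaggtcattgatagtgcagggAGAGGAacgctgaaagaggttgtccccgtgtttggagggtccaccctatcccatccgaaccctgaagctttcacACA
SNORA71D: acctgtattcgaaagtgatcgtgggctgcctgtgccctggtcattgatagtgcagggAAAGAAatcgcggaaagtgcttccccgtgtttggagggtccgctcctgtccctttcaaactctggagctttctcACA
SNORA7B: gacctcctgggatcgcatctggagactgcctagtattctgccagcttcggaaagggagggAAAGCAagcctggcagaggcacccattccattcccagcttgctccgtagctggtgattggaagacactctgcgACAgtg
SNORA54: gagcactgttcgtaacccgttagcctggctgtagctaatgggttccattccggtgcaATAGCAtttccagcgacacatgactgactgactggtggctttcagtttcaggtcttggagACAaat
The box C/D rows shown are SNORD17 at chr20:17943353-17943589 on the minus strand in an intron of SNX5 and the neighbouring copies SNORD116-18 at chr15:25330532-25330623 and SNORD116-19 at chr15:25331674-25331765 on the plus strand within exons of SNHG14. Capitals mark TGATGA, the C box, and CTGA, the D box.
SNORD17: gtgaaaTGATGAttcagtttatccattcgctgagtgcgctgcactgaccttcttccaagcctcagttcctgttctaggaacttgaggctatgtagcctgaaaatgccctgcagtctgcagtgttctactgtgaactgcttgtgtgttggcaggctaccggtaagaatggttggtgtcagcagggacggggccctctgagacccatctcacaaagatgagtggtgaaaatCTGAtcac
SNORD116-18: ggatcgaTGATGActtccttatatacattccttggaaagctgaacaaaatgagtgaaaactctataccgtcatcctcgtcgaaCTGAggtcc
SNORD116-19: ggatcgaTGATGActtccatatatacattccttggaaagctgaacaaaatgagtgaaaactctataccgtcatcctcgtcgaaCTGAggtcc
SNORD116-18 and SNORD116-19 differ by 1 base over 92 bases (98.9% identity), and SNORA71A and SNORA71D share 82.1% of positions. Reads of 51 bases can fit more than 1 copy of SNORD116, and how such reads were counted is not given in the sources used here, so the split of counts among these copies is uncertain.

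The labels were checked against the annotation and the boxes. A gene model was found for 87 of the 88 rows, and 79 of these models were at most 250 nt long, 41 SNORA and 38 SNORD. On the transcribed strand, TGATGA within the first 20 bases was present in 29 of the 38 SNORD models (76.3%) and CTGA within the last 20 bases in 37 (97.4%), against 1 (2.63%) and 3 (7.89%) of the windows of equal length just upstream. Among the 384 named SNORD rows of any count with a gene model of that size, the shares were 59.4% and 81.2%. In the 41 SNORA models, ACA within the last 6 bases was present in 39 (95.1%) and in 1 upstream window (2.44%). The degenerate ANANNA in the middle of the model was also found in 39 (95.1%), but 22 upstream windows (53.7%) held it too. Over all 396 named SNORA rows, ANANNA and ACA were present in 81.6% and 71.2%.

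For 9 rows the symbol did not match a snoRNA-sized gene. The row named SNORD116-20 (ENSG00000261069) is annotated as a long non-coding RNA of 1236 nt at chr15:25332808-25334043, within SNHG14. The row SNORA76 with the higher count (ENSG00000266402) is the SNHG25 gene of 540 nt, which hosts SNORD104. SNORD64 is a sense-intronic transcript of 310 nt, and SNORA71B has a model of 272 nt. The 4 U3 rows, SNORD3A with 699 nt, SNORD3B-1, SNORD3B-2 and SNORD3C, have models longer than the mature RNA, and SNORD109A had no model in the annotation used. Values for these rows are given under their symbols and mean counts over the whole model. A further 25 snoRNA-sized rows, among them SNORA71A, SNORA71D and the SNORD116 copies, overlap an exon of their host gene on the same strand, so host transcripts can contribute to their counts, and that part was not tested.

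Reaching the minimum went with model length among SNORD rows, and among SNORA rows only at the shortest and longest models. Models of more than 250 nt, such as those of U3 and SNORD116-20, are not snoRNA-sized and do not speak to snoRNA length. Of SNORD rows with models under 100 nt, 31 of 361 reached the minimum (8.59%), against 6 of 21 with 100 to under 150 nt (28.6%) and 6 of 8 with more than 250 nt (75%). Of SNORA rows under 100 nt, 0 of 31 reached it (0%), and of those with more than 250 nt 2 of 6 (33.3%). Between these, 37 of 329 with 100 to under 150 nt reached it (11.2%) and 4 of 36 with 150 to 250 nt (11.1%). Several snoRNAs of ribosomal RNA processing were near or below the minimum. U8 (SNORD118), SNORD14B, SNORD14C, SNORD14D and SNORD22 had no count in any column, which bounds each at 3 counts over the 20 columns, counting error only. SNORD14A had 17 counts, SNORD3D 15 and SNORD14E 24.

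Library totals ran from 5593400 to 12438006 counts over the 12 samples, with the paired columns of each line condition added together because they differed by no more than counting noise. EHMT1 itself moved with the labels. It was at 83.5 and 78.7 TMM-scaled CPM (counts relative to the library's total, scaled between libraries by edgeR's TMM factors) in siNTC and 27.7 and 29.1 in siEHMT1, and at 73.3 to 91.0 in the Veh lines and 676 to 859 with Dox. The luminal prostate gene KLK3 was high in each sample (2757 to 8528 CPM), and of 10 markers of other cell types KRT5, TP63, COL1A2 and PTPRC were at 0 in each sample, 4 others were at 1.56 CPM or less, and COL1A1 was at 14.5 to 41.9 and VWF at 3.43 to 15.2 CPM. A pair of libraries stood apart. In siNTC replicate 2, the smallest library, 10.0% of counts fell on 2 ribosomal-RNA-like pseudogenes, against 0.0313% to 1.00% in the other 11 samples. K451R Veh had the highest summed level of both snoRNA classes.

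A few RNAs made up most of the snoRNA signal. SNORD3A, a U3 gene, had 44885 counts and SNORA73B, a U17 gene, 41373, followed by SNORD116-20 with 15521 and SNORD17 with 11011. These 4 rows held 82.2% of the counts of the 88. SNORA73B alone held 70.1% of the SNORA counts and SNORD3A 57.4% of the SNORD counts. The next rows were SNORA71A (3633), SNORA76 (1727), SNORD13 (1661), SNORA71D (1172), SNORA74A (1121), SNORA80B (1069) and SNORD15B (937). SNORD64, the sixth SNORD row, had 410.

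Per kilobase of gene model, the median level over the 8 line conditions was 2268 CPM per kb for SNORA73B, 548 for SNORD17, 281 for SNORA71A and 164 for SNORD13. U3 came to 636 CPM per kb, over a model that is longer than the RNA. The median over the 41 snoRNA-sized SNORA rows was 13.1 CPM per kb and over the 38 SNORD rows 3.82. Within SNORD it was 3.33 for the 31 rows under 100 nt and 15.8 for the 6 rows of 100 to under 150 nt, beside 12.8 for the 37 SNORA rows of that length. Length and class move together here, and the recovery of short RNA by these libraries was not tested.

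**Figure D1:**
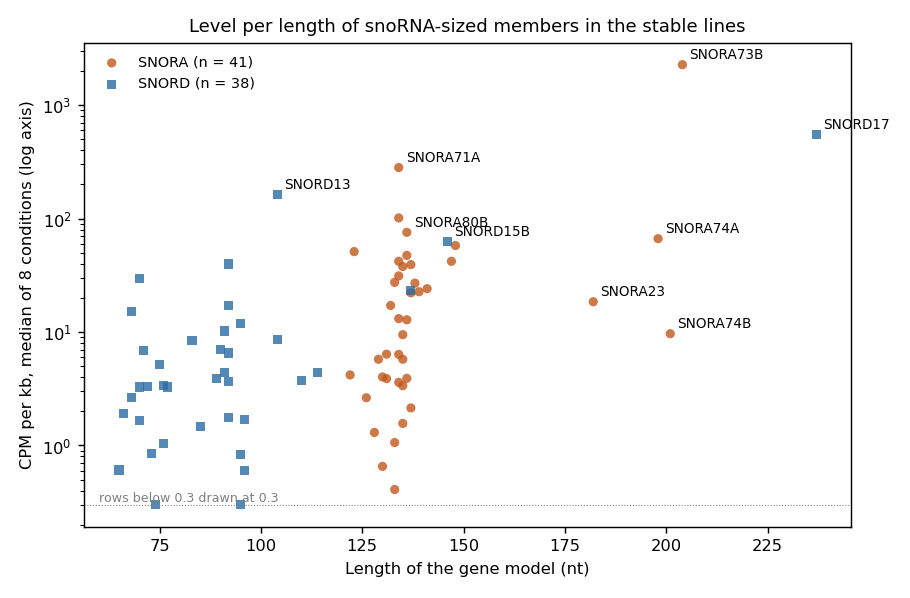
Length of the gene model in nucleotides (x axis) against the level in CPM per kilobase, the median of the 8 stable line conditions (y axis, log scale), for the 41 SNORA rows (circles) and 38 SNORD rows (squares) with a snoRNA-sized model. SNORA73B at 2268 CPM per kb and SNORD17 at 548 are the highest points, and most SNORD rows under 100 nt sit lower than the SNORA rows.

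Summed over the class, SNORA stood at 147 TMM-scaled CPM in siNTC replicate 1, 148 in siNTC replicate 2, 180 in siEHMT1 replicate 1 and 208 in siEHMT1 replicate 2. In the uninduced lines it was 668 in WT, 700 in K450R, 895 in K451R and 586 in K450RK451R, and with Dox 660, 596, 609 and 588. The siEHMT1 samples were both above the siNTC samples, by 0.39 on the log2 scale (SD 0.10), and with Dox the mean log2 difference over the lines was -0.20 (SD 0.26), from -0.56 in K451R to 0.0063 in K450RK451R. These sums are descriptions, with no test. In bulk RNA a lower level can come from fewer cells that hold an RNA or from less RNA in each, which cannot be told apart.

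The SNORD sum was 241 and 331 CPM in siNTC and 268 and 304 in siEHMT1, so the groups overlapped. In the uninduced lines it was 899 in WT, 856 in K450R, 1492 in K451R and 737 in K450RK451R, and with Dox 718, 750, 774 and 662. It was lower with Dox in each line, by -0.32, -0.19, -0.95 and -0.15 on the log2 scale in the same order. The 4 Dox values lie close together (726 ± 48.3 CPM, SD, n = 4) while the Veh values spread more (996 ± 338), the K451R Veh sample being the highest. Without SNORD3A, K451R Veh was at 419 CPM against 311 to 396 in the other Veh lines. The 38 snoRNA-sized SNORD rows held 17007 of the 78178 SNORD counts, so the SNORD sum mostly reflects rows with longer models. Summed alone, these 38 rows averaged 58.3 CPM in siNTC, 67.3 in siEHMT1, 206 in the Veh lines and 164 with Dox.

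**Figure D2:**
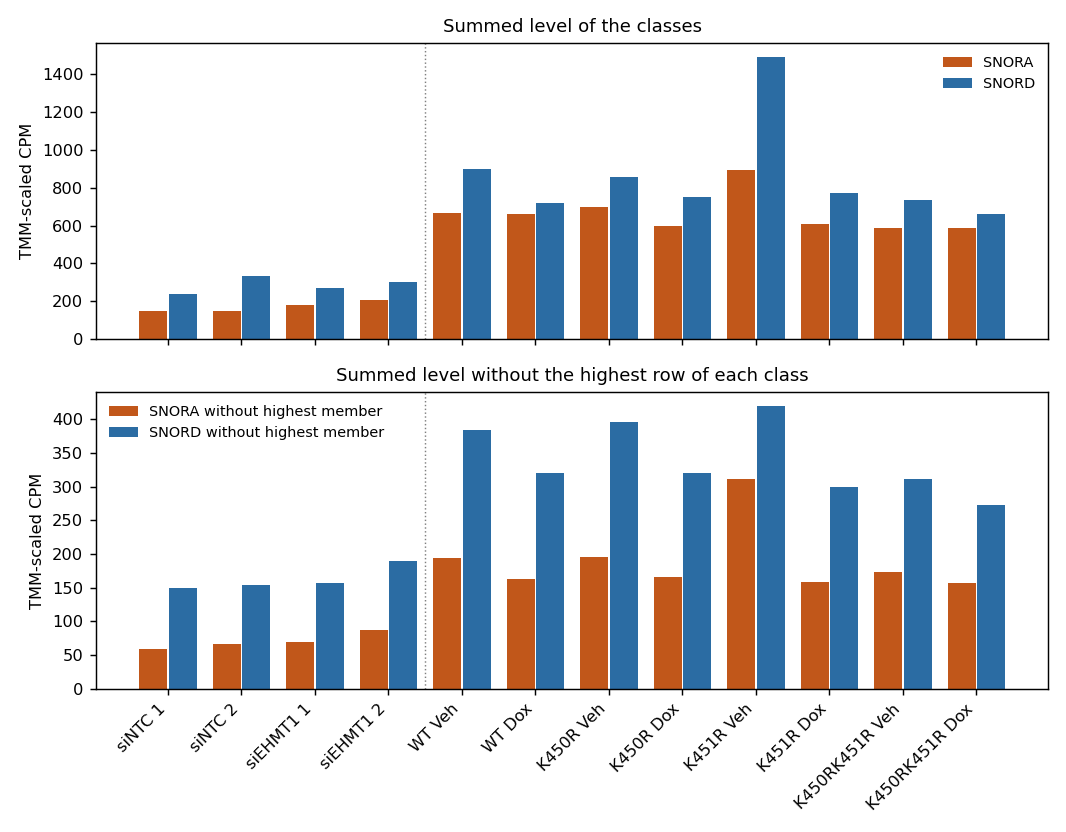
Summed TMM-scaled CPM of the SNORA and SNORD rows in each of the 12 samples (top) and the same without SNORA73B and SNORD3A, the highest row of each class (bottom). The 4 siRNA samples, left of the dotted line, are lower than the 8 line samples, and K451R Veh has the highest bars of both classes, 895 and 1492 CPM in the top panel.

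Silencing of EHMT1 was compared with siNTC over 14532 genes, of which 45 were snoRNA rows, 21 SNORA and 24 SNORD. No snoRNA row passed an adjusted p of 0.05 in edgeR's quasi-likelihood test, where 0.131% of all genes did, 0.0619% higher and 0.0688% lower, and neither DESeq2 nor limma-voom called one. At an unadjusted p under 0.05 there were 5 rows, all higher with siEHMT1 and all SNORA (11.1% of the 45, against 9.55% of all genes in either direction, 4.46% higher and 5.09% lower). DESeq2 gave 1 such row and limma-voom 5. Of the 45 rows, 38 had a log2 fold change above 0 (84.4%, against 49.6% of all genes), with a median of 0.39 against -0.0021. These signs leaned on siEHMT1 replicate 2, without which 28 of 49 rows were above 0 with a median of 0.056, and with any other sample left out 32 of 51 to 42 of 48 were. The siEHMT1 samples were both above the siNTC samples for 15 rows (33.3%, against 20.1% of all genes) and both below for SNORD12B and SNORD116-14 (4.44%, against 19.2%). The SNORA median was 0.47 and the SNORD median 0.28.

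SNORA73B, the U17 RNA of early ribosomal RNA processing, had the lowest p. It was at 88.7 and 82.1 CPM in siNTC and 111 and 120 in siEHMT1, so the groups did not overlap. Its log2 fold change was 0.43 (SE 0.096, adjusted p = 0.0796). Of the genes whose introns hold it, SNHG3, a non-coding RNA gene, had a log2 fold change of 0.38 (SE 0.088, adjusted p = 0.0919) and RCC1, the nucleotide exchange factor of the GTPase Ran, -0.093 (SE 0.099, adjusted p = 0.816).

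The other rows at an unadjusted p under 0.05 are guides with few counts. SNORA7B was at 0.719 and 0.931 CPM in siNTC (8 and 5 counts) and 1.68 and 2.19 in siEHMT1 (17 and 29 counts), a log2 fold change of 1.29 (SE 0.50, adjusted p = 0.411). SNORA5C, from an intron of TBRG4, was at 1.62 and 0.931 against 2.48 and 2.87 CPM, a log2 fold change of 0.97 (SE 0.41). In both rows the higher group stood clear of the lower one, on counts of 5 to 38 a sample. SNORA54 was at 2.79 and 3.35 CPM in siNTC and 5.15 and 4.68 in siEHMT1 (log2 fold change 0.70, SE 0.30). SNORA84, named because it completes the 5 and not by rank, was at 0.360 and 0.558 against 1.09 and 1.21 CPM (log2 fold change 1.41, SE 0.65). SNORA7B and SNORA84 were the 2 rows past both a 2-fold change and an unadjusted p under 0.05 (0.874% of all genes were, in that direction).

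Among the abundant SNORD rows, SNORD17 was at 16.4 and 17.3 CPM in siNTC and 19.7 and 20.2 in siEHMT1, with a log2 fold change of 0.25 (SE 0.15). SNORD116-20 was at 86.7 and 84.1 against 88.9 and 105 CPM (0.18, SE 0.10). Both rows were higher in the siEHMT1 samples, without passing the test. SNORD3A went the other way on average, at 91.8 and 177 CPM in siNTC and 110 and 114 in siEHMT1 (-0.26, SE 0.18). The spread of U3 between the siNTC samples exceeded its difference between the groups, and the higher value belongs to siNTC replicate 2, the library with 10.0% of counts on the pseudogenes, whose part in it was not tested. Its direction turned with the control library used. Without siNTC replicate 2 the log2 fold change was 0.29 (SE 0.13, adjusted p = 0.694), and without siNTC replicate 1, which leaves replicate 2 as the sole control, it was -0.67 (adjusted p = 3.38e-05). SNORD13 was at 3.87 and 5.40 against 2.87 and 7.17 CPM, and SNORD15B at 3.06 and 3.91 against 3.76 and 3.09, so for both the groups overlapped.

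The SNORA71 copies and the other abundant SNORA rows varied within the groups. SNORA71A was at 9.17 and 13.2 CPM in siNTC and 8.62 and 17.7 in siEHMT1, and SNORA71D at 2.34 and 1.12 against 1.98 and 4.30. In both, the siEHMT1 samples lay on either side of the siNTC samples or overlapped them. SNORA74A (2.52 and 2.23 against 1.88 and 3.77 CPM), SNORA80B (2.34 and 3.91 against 2.77 and 2.42) and SNORA76 (8.09 and 9.31 against 9.41 and 9.21) had log2 fold changes of 0.26, -0.20 and 0.11, each smaller than or near its SE of 0.39, 0.36 and 0.21.

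**Figure D3:**
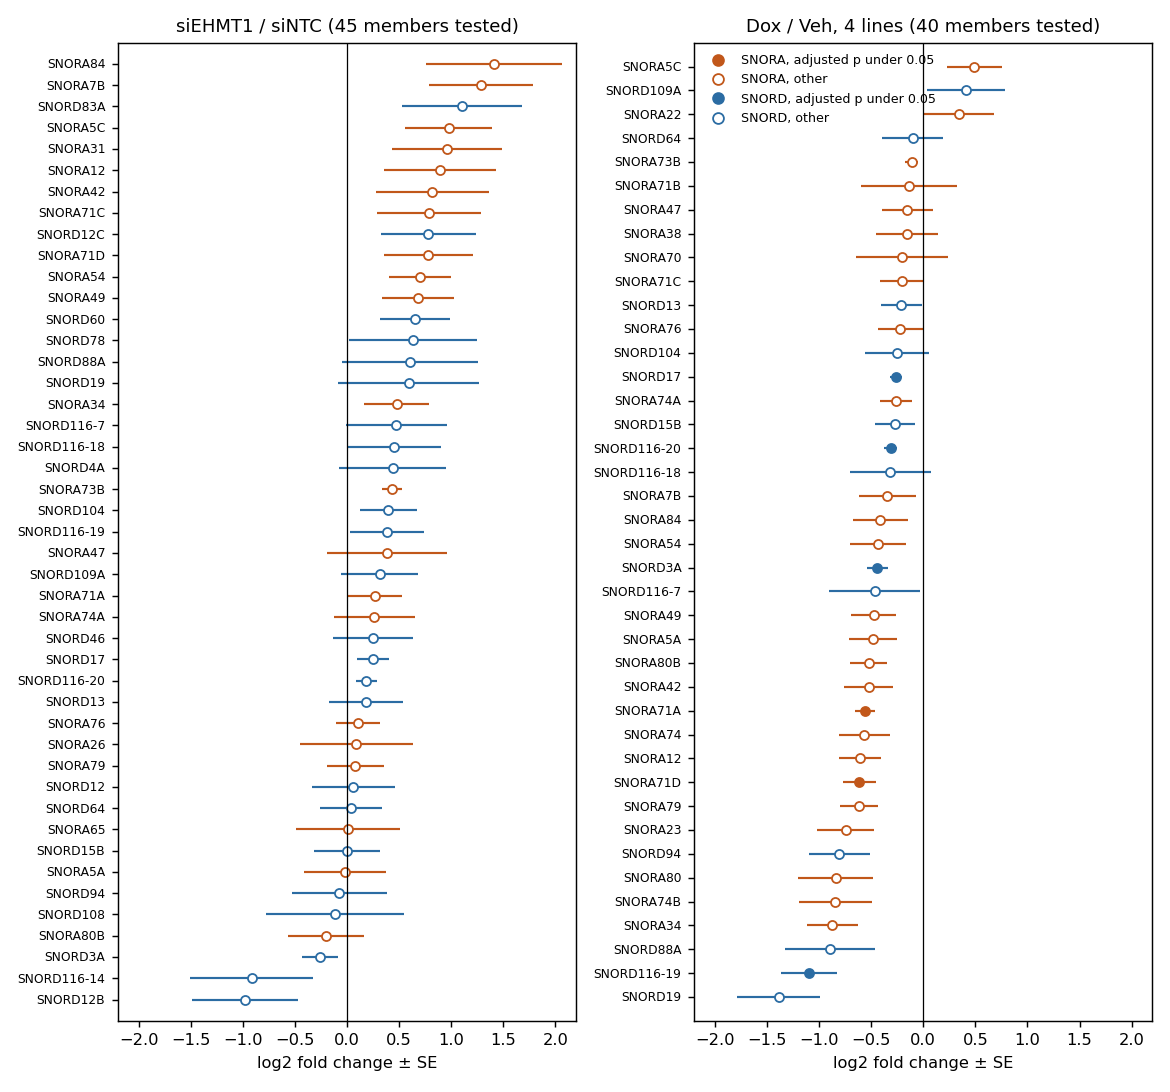
Fitted log2 fold change (x axis) with its standard error for the 45 snoRNA rows tested in siEHMT1 against siNTC (left) and the 40 tested in Dox against Veh over the 4 lines (right), ordered by value. Filled points passed an adjusted p of 0.05 in edgeR's test, 0 on the left and 6 on the right. On the right 37 of 40 points lie below 0 (48.8% of all genes do), against 27 of 40 in a fit without line K451R (48.7% of all genes).

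Induction with Dox was compared with Veh over the 4 lines, with the line as a block, for 14105 genes, of which 40 were snoRNA rows. All 6 rows called at an adjusted p of 0.05 were lower with Dox (15% of the 40, against 1.51% of all genes called lower, 0.603% called higher and 2.11% called in all). Of these 6, SNORD3A and SNORD116-20 have longer models, and among snoRNA-sized rows 2 of 24 SNORA and 2 of 10 SNORD were called. Beyond the 6, a further 14 of the 40 rows reached an unadjusted p under 0.05, all lower. That makes 20 of 40 (50%, against 7.55% of all genes lower and 6.86% higher). The median log2 fold change was -0.42 against 0.0050 over all genes, with SNORA at -0.46 and SNORD at -0.32. Of the rows, 37 were below 0 (48.8% of all genes were), and the 3 above 0, named for this count, were SNORA5C, SNORD109A and SNORA22. Dox was below Veh in each of the 4 lines for 12 rows (30%, against 9.72% of all genes) and above in each for SNORA5C (2.5%, against 11.2%). The 4 lines each have 1 sample per arm, so the test measures how well the lines agree. Without line K451R, 27 of 40 rows were below 0 (48.7% of all genes were), with a median of -0.22. In that fit 1 row was called, SNORA71A. At an unadjusted p under 0.05 there were then 12 rows lower and 2 higher, SNORA76 and SNORD13, a count not made over all genes there. With each other line left out, 37 or 38 of 40 to 42 rows were below 0 (49.2% to 49.8% of all genes), with medians from -0.55 to -0.38. With all 4 lines but no line block edgeR called none, with 15 rows at an unadjusted p under 0.05.

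SNORA71A, a pseudouridylation guide, had the lowest adjusted p. It was at 41.4 CPM in WT, 49.3 in K450R, 60.2 in K451R and 42.8 in K450RK451R uninduced, and at 34.0, 33.4, 30.6 and 32.2 with Dox. The Dox values lay below each of the Veh values. Its log2 fold change was -0.56 (SE 0.095, adjusted p = 0.000844), and -0.41 without line K451R (adjusted p = 0.0398). Its copy SNORA71D fell too, from 16.1, 13.2, 22.3 and 14.5 CPM to 9.82, 13.9, 9.08 and 10.5, a log2 fold change of -0.61 (SE 0.16, adjusted p = 0.0399). In K450R it was not lower. Without line K451R its log2 fold change was -0.37, and it was not called without WT (-0.58), K451R or K450RK451R (-0.67).

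SNORD3A, the U3 RNA, was at 514, 460, 1072 and 426 CPM in uninduced WT, K450R, K451R and K450RK451R and at 398, 429, 475 and 389 with Dox. K451R Veh was more than 2-fold above each other sample. The log2 fold change was -0.44 (SE 0.099, adjusted p = 0.0129), and -0.19 without that line (adjusted p = 0.234). DESeq2 did not call it (adjusted p = 0.587). Each line was lower with Dox, from a Dox/Veh ratio of 0.945 in K450R (95% interval 0.904 to 0.989, counting error only) to 0.447 in K451R (0.433 to 0.463).

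SNORD17, an unusually long box C/D RNA, was at 134, 156, 163 and 117 CPM in the uninduced lines and 103, 126, 140 and 105 with Dox. It was lower in each line, with a log2 fold change of -0.26 (SE 0.061, adjusted p = 0.0170). The ranges of the Veh and Dox samples overlapped, and the difference showed within lines. Without the WT, K450R or K451R line it was not called, at log2 fold changes of -0.22, -0.25 and -0.27. SNORA73B was at 474, 505, 583 and 412 CPM uninduced and 497, 431, 451.1 and 431 with Dox, higher in WT and K450RK451R and lower in the others, and was not called (-0.11, SE 0.062, adjusted p = 0.436).

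Rows from the imprinted SNORD116 cluster on chromosome 15 were also lower. SNORD116-20, the long non-coding row, was at 192, 179, 154 and 144 CPM uninduced and 160, 148.5, 113 and 116 with Dox (-0.31, SE 0.059, adjusted p = 0.00231), and -0.27 without line K451R, when it was not called. SNORD116-19 was at 4.34, 4.31, 4.35 and 5.92 CPM uninduced and 3.003, 2.18, 2.17 and 1.66 with Dox (-1.10, SE 0.27, adjusted p = 0.0269), so its groups did not overlap. It was not called without K450R, K451R or K450RK451R, with log2 fold changes of -1.13, -1.13 and -0.82. The copy that differs by 1 base, SNORD116-18, was at 2.34, 1.39, 3.23 and 0.623 CPM uninduced and 2.19, 1.74, 0.916 and 1.19 with Dox (-0.32, SE 0.39), lower with Dox in WT and K451R, and 0.25 without K451R. Their host SNHG14 had a log2 fold change of 0.038 (SE 0.066).

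SNORA5C ran against the direction of the rest. It was at 2.60, 2.92, 2.98 and 2.60 CPM uninduced and 4.85, 3.70, 3.08 and 3.79 with Dox, higher in each line, but the change did not pass the test (0.49, SE 0.26, adjusted p = 0.406). SNORA5A, from the same host TBRG4, was at 6.07, 5.96, 5.22 and 2.91 CPM uninduced and 3.58, 4.79, 3.25 and 2.69 with Dox (-0.48, SE 0.23). Past both a 2-fold change and an unadjusted p under 0.05 were SNORD116-19 and SNORD19, the latter named for this count (-1.39, SE 0.40, adjusted p = 0.0674).

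**Figure D4:**
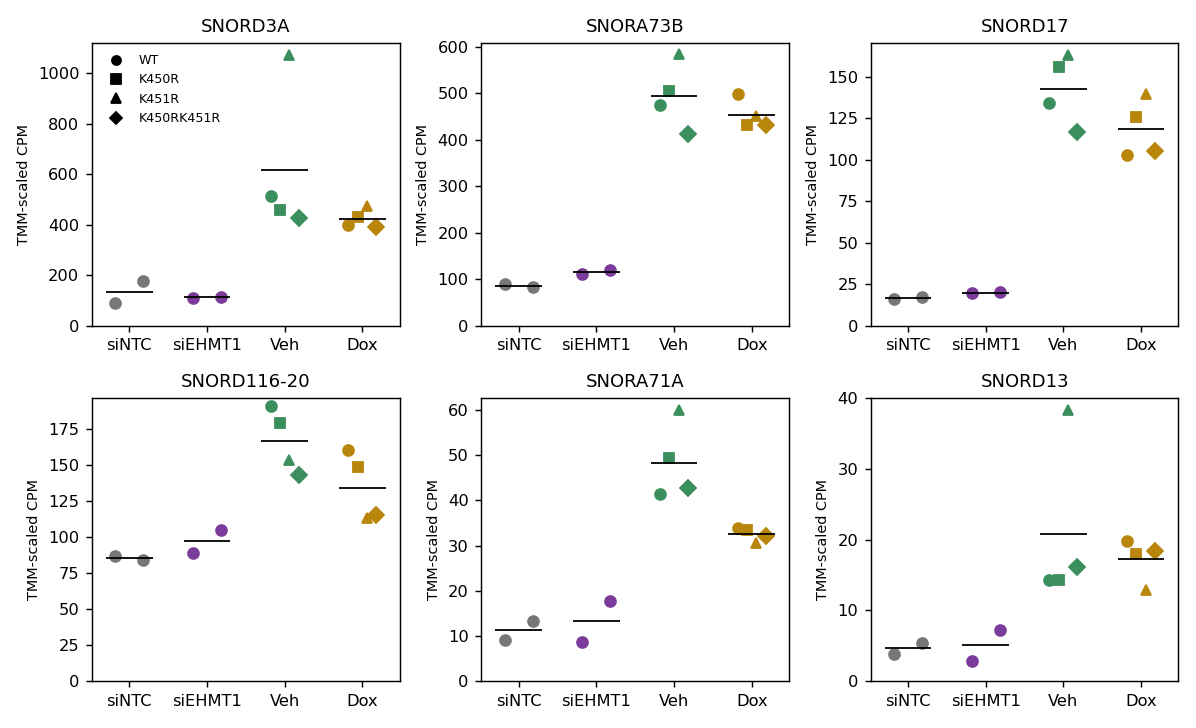
TMM-scaled CPM (y axes from 0) of 6 abundant rows in the siNTC, siEHMT1, Veh and Dox samples, with 1 point a sample, the line shown by the marker and the group mean by a bar. For SNORD3A and SNORD13 the K451R Veh point (1072 and 38.3 CPM) stands far above the other Veh lines, while for SNORA71A the 4 Dox points lie below the 4 Veh points.

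The lines differed in how many rows were lower with Dox. With 1 sample per arm a line gives no test, and ratios carry 95% intervals for counting error only. The number of the 40 tested rows at least 2-fold lower was 4 in WT (10%, against 2.1% of all genes), 7 in K450R (17.5%, against 2.07%), 16 in K451R (40%, against 1.83%) and 3 in K450RK451R (7.5%, against 1.84%). At least 2-fold higher were SNORA22 in WT (1.55% of all genes), none in K450R (2.23%), SNORD109A in K451R (1.84%) and SNORA71B in K450RK451R (2.7%), on 5 to 27 counts an arm and named for this count. Among rows with over 3 counts in both arms, the interval lay below 1 for 14 of 50 in WT, 15 of 50 in K450R, 29 of 54 in K451R and 17 of 48 in K450RK451R, and above 1 for 5, 1, 1 and 3. The same interval counts were not made over all genes, so they have no background share. The median ratios were 0.889, 0.852, 0.557 and 0.931.

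The K451R difference sat in the uninduced sample. Of the 40 tested rows, 27 had their highest Veh value in K451R (67.5%, against 24.8% of all genes), by a median of 0.63 on the log2 scale over the mean of the other Veh lines. Among the Dox samples K451R was highest for 10 rows (25%, against 22.5% of all genes) and its median was -0.031. WT Dox was highest for 20 rows (50%, against 29.6% of all genes), with a median of 0.18. The K451R Veh library had 13.1% of counts on MT-RNR2, a mitochondrial ribosomal RNA, against 10.7% to 11.6% in the other Veh libraries and 7.26% to 12.5% with Dox, and the part of library composition in the snoRNA values was not tested.

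In K451R the smallest Dox/Veh ratios among rows with at least 100 counts were those of SNORA34 (120 to 49 counts, ratio 0.277, interval 0.194 to 0.389) and SNORA54 (173 to 75 counts, 0.294, 0.221 to 0.387). SNORA54 was at 6.68, 3.68, 21.5 and 4.36 CPM in uninduced WT, K450R, K451R and K450RK451R and 6.93, 5.88, 6.25 and 6.32 with Dox, so it was lower with Dox in K451R and higher in the other lines, and its log2 fold change of -0.43 became 0.38 without K451R. SNORD13, which acts in maturation of the small ribosomal subunit RNA, had the same form, at 14.2, 14.3, 38.3 and 16.1 CPM uninduced and 19.9, 17.95, 12.9 and 18.4 with Dox. Its ratio was 1.40 in WT (1.12 to 1.74) and 1.27 in K450R (0.993 to 1.63), the largest or second largest there, and its log2 fold change went from -0.21 to 0.34 without K451R. SNORA76, the SNHG25 row, went from 15.8, 11.8, 37.05 and 13.0 CPM to 19.3, 15.1, 11.3 and 18.2, and SNORD15B from 9.02, 9.25, 18.9 and 8.62 to 11.4, 8.38, 7.91 and 9.48. Their log2 fold changes of -0.22 and -0.27 were 0.38 and 0.14 without K451R. None of these 4 rows was called in either fit.

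Other rows were extreme in other lines. In WT the smallest ratios were those of SNORA74A (0.485, interval 0.345 to 0.673) and SNORA12 (0.521, 0.344 to 0.774), and SNORA42 followed SNORD13 as the largest (1.36, 0.918 to 2.00). SNORA74A was the largest in K451R (1.11, 0.890 to 1.40), where SNORD17 came next at 0.864. There 17 of the 18 rows with at least 100 counts were below 1, a count not made over all genes. In K450R the smallest were SNORA79 (0.440, 0.296 to 0.645) and SNORA71A (0.686, 0.589 to 0.799) and the largest SNORA76 (1.299, 0.992 to 1.71). In K450RK451R they were SNORA34 (0.606) and SNORA12 (0.641) at the low end and SNORA54 (1.46) and SNORA76 (1.41) at the high end. SNORA80B was at 15.2, 10.3, 23.9 and 9.25 CPM uninduced and 9.01, 10.3, 10.2 and 10.3 with Dox.

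**Figure D5:**
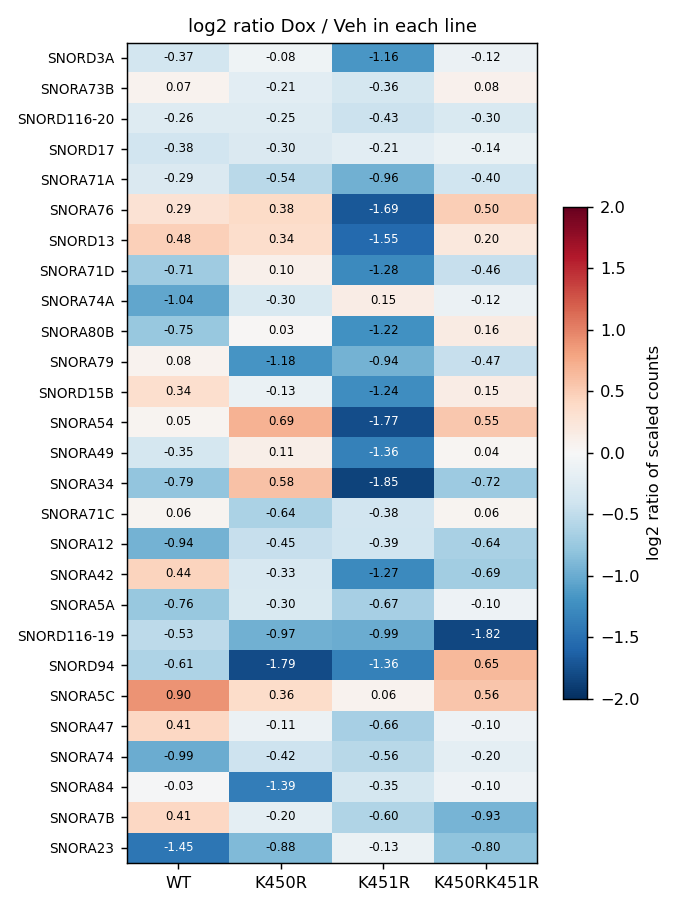
log2 of the Dox/Veh ratio of scaled counts in each of the 4 lines (columns) for the 27 rows with at least 40 counts over both arms in every line, ordered by abundance, with blue for lower and red for higher with Dox. The K451R column is blue for all but SNORA74A and SNORA5C, while SNORA54, SNORD13 and SNORA76 are red in the other 3 lines.

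The siNTC samples were set against the uninduced lines to place the 2 experiments side by side. Experiment, transfection and stable line cannot be told apart in this contrast, and it says nothing of EHMT1. Of 46 snoRNA rows tested, 36 were called (59.7% of all genes were, and 63.5% at an unadjusted p under 0.05): 33 were called lower in siNTC (71.7%, against 29.6% of all genes) and 3 were called higher (6.52%, against 30.1%), with a median log2 fold change of -1.56 against -0.0065. SNORA rows were called lower in 25 of 28 cases and SNORD rows in 8 of 18. The 6 rows called lower at the lowest adjusted p were SNORD17 (-3.07, SE 0.13, adjusted p = 3.84e-14), SNORA73B (-2.52, SE 0.11), SNORA71A (-2.14, SE 0.17), SNORA71D (-3.09, SE 0.30), SNORD116-20 (-0.96, SE 0.10) and SNORA74A (-2.50, SE 0.29). The rows called higher in siNTC were SNORD12B (2.21, SE 0.57), SNORD60 (1.10, SE 0.46) and SNORD109A (1.04, SE 0.39). The first 2 of these overlap exons of their hosts ZFAS1 and SNHG19. Both hosts went the other way and were lower in siNTC, at -1.87 (SE 0.085) and -1.22 (SE 0.12).

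Position relative to host exons went with that contrast. The 10 tested snoRNA-sized rows in an exon of another gene had a median of -0.18, with 4 called lower and 2 higher, and the 30 outside such exons -1.71, with 25 called lower and none higher (26 at an unadjusted p under 0.05, all lower). Position and class were not separated. The exon rows were mostly SNORD and the others mostly SNORA, and over all tested rows the SNORA median was -2.12 and the SNORD median -0.65. With siNTC replicate 1 left out, 19 rows were called in place of 36. MT-RNR2 took 20.7% to 25.5% of counts in the siRNA libraries and 7.26% to 13.1% in the line libraries, so the library make-up differed between the experiments as well.

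In 32 rows tested in both the siRNA and the Dox comparison, which share no samples, 26 had a log2 fold change above 0 with siEHMT1 and below 0 with Dox, against 25.5% of the 13617 genes tested in both. None was below 0 with siEHMT1 and above 0 with Dox, 2 were above 0 in both and 4 below 0 in both. Without line K451R the count was 18 of 31 (58.1%, against 25.3% of all genes), with 9 above 0 in both. The siEHMT1 signs leaned on siEHMT1 replicate 2, without which 28 of 49 rows were above 0 with a median of 0.056. The count of opposite signs was not made without that sample. It counts signs and not called changes.

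In the siRNA and Dox comparisons the median of the host genes lay closer to 0 than that of their snoRNAs. In the siRNA comparison, 37 snoRNA-sized rows had a median of 0.44 while their 28 tested hosts had 0.084, and no host was called. In the Dox comparison, 30 rows had a median of -0.48 and their 25 hosts -0.0018, with 12 hosts above 0 and 13 below. The 1 host called was ODC1, the first enzyme of polyamine synthesis and host of SNORA80B, named for this count. It was higher with Dox (0.22, SE 0.053, adjusted p = 0.0220), while SNORA80B had a log2 fold change of -0.52 (SE 0.18). Over pairs of snoRNA and host, which share libraries and in part host genes, Pearson's r was 0.071 with siEHMT1 and -0.23 with Dox. In siNTC against the uninduced lines, 36 rows had a median of -1.53 and their 30 hosts 0.29, with an r of -0.55. Of these hosts 27 were called, where 59.7% of all genes were.

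Proteins that build or process snoRNPs were read from a list of 28 genes. With siEHMT1 none was called by edgeR (3 at an unadjusted p under 0.05, lower), and the median was -0.060. With Dox none was called either (3 at an unadjusted p under 0.05, higher), and the median was 0.049. The core box C/D proteins, FBL, the methyltransferase, with NOP56, NOP58 and NHP2L1, were listed together with RRP9, a U3 protein. Their joint median was -0.015 with siEHMT1 and 0.11 with Dox. The core box H/ACA proteins, DKC1, the pseudouridine synthase, with GAR1, NHP2 and NOP10, had medians of 0.017 and -0.028. The Dox values at the lowest p were those of TGS1, which trimethylates snoRNA caps (0.48, SE 0.15, adjusted p = 0.0883), DBR1, the lariat debranching enzyme (0.38, SE 0.15) and PARN, a deadenylase (0.20, SE 0.086).

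Small Cajal body RNAs, which guide modification of spliceosomal RNA, showed a like direction, while rows with RNU symbols lay on both sides of 0. Of 12 small Cajal body RNA rows (SCARNA), 11 were below 0 with Dox and 4 were called lower, SCARNA21 (-0.67, SE 0.089), SCARNA7 (-0.57, SE 0.084), SCARNA13 (-0.40, SE 0.063) and SCARNA10 (-0.28, SE 0.053), named for this count. With siEHMT1, 10 of the 12 were above 0, with none called by edgeR and 2 at an unadjusted p under 0.05. The RNU rows were taken by symbol and include pseudogenes of spliceosomal RNAs, such as the U2 rows named here, whose symbols end in P. Of 9 RNU rows, 5 were below 0 with Dox and 4 above, with a median of -0.13. RNU2-59P was called lower (-0.28, SE 0.062), and at an unadjusted p under 0.05 there were 3 rows lower and 2 higher, RNU2-64P (0.72, SE 0.21) and RNU2-6P (0.50, SE 0.23). With siEHMT1 none was called by edgeR, and these same 2 rows were lower at an unadjusted p under 0.05 (-1.60, SE 0.47, and -1.96, SE 0.43) while 1 row was higher. The summed SCARNA level was 378 and 422 CPM in siNTC, 464 and 484 in siEHMT1, 1061 to 1339 in the Veh lines and 888 to 1154 with Dox. The summed RNU level averaged 61.4 CPM in siNTC, 61.3 in siEHMT1, 346 in the Veh lines and 305 with Dox. Lower values with Dox were thus also found among the SCARNA rows.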

How the data were processed

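Total RNA from LNCaP cells was extracted with a column kit, made into stranded libraries and sequenced as 51-base single reads. Per the submitters' processing notes, FastQC 0.11.9, STAR 2.7.2 and featureCounts 1.6.4 were used on hg19 (GRCh37). The annotation release, the use of strand and the treatment of multiply mapped reads are not given in the sources used here. The deposited values are whole-number read counts for each gene, with no normalization by the authors, and were used unchanged.

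The members and gene lists were chosen with earlier results of these data known. The 2 columns of each stable line condition agreed within counting noise (chi-square per degree of freedom 0.995 to 1.02 over all genes) and were summed, giving 12 samples and 1 sample per condition; the siRNA samples of a group differed by more. Nothing states whether the siRNA replicates are separate cultures, so their p-values measure the spread between these samples, which may be technical. Levels are CPM scaled by TMM over the 12 samples. Each comparison was fitted over all genes passing filterByExpr with edgeR 4.0.16 (R 4.3.3), by TMM and the quasi-likelihood F-test with Benjamini-Hochberg adjustment, with the line as a block for Dox against Veh. SE is the fold change divided by the root of F. Single lines had no test, and their ratios carry exact 95% binomial intervals. The fits were tested on simulated data. Alternatives were DESeq2 1.42.0, limma-voom (limma 3.58.1), upper-quartile scaling, no filter, the legacy quasi-likelihood method, other blocks, leaving out samples, leaving out 2 pseudogenes and, chosen after seeing the data, rows with models up to 250 nt. Gene models and sequences are from GENCODE 44 on GRCh37. Named genes were the 6 most abundant SNORA and SNORD rows, called rows (up to 6 per direction, or the 4 lowest p), a list of processing snoRNAs, the extremes of each line among rows with at least 100 counts, and rows nearest the minimum of 20.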

Additional observations from a re-analysis of the deposited data

Results flagged for a closer look

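In 36 groups of 4 line samples, formed by the Veh or the Dox arm of the class sums and of rows chosen by abundance, by a call with Dox or by a low p with siEHMT1, 7 held a sample far from the other 3; chance alone flags about 1 in 20 such groups when they are independent and not chosen by their values. These groups share the same 8 libraries and include rows called with Dox, so that rate is no chance level for the 7. In 5 of the 7 it was the K451R Veh sample, which was high. SNORD3A was at 1072 CPM there, against 426 to 514 in the other Veh lines. SNORD13 was at 38.3 (others 14.2 to 16.1), SNORA76 at 37.05 (11.8 to 15.8), SNORA54 at 21.5 (3.68 to 6.68) and SNORD15B at 18.9 (8.62 to 9.25). SNORD116-19 was at 5.92 CPM in K450RK451R Veh, against 4.31 to 4.35 in the other Veh lines. SNORA80B was at 9.01 CPM in WT Dox, below the 10.2 to 10.3 of the other Dox lines. The cause was not tested.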

How the results depend on the processing

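The count of snoRNA rows called in Dox against Veh was 6, and 3 with DESeq2 (30 of the 40 rows had no adjusted p there), 0 with no line block, and 1 to 6 with each line left out, the 1 being without K451R; the cause was not tested. For siEHMT1 against siNTC it was 0, and 1 with replicate number as a block (SNORA73B, adjusted p = 0.00693, where all genes called went from 19 to 118); deviations of same-numbered samples were not correlated (r = -0.0023 over 14532 genes), so the samples share only a number. Leaving out 1 siRNA sample gave 0 to 2 called rows, the 2 being SNORA73B and SNORD3A without siNTC replicate 1, with the lone sample assumed to vary like the other group. Against the uninduced lines, the count of 36 was 19 to 37 with 1 sample left out, the 19 being without siNTC replicate 1. The other 66 values of counts and summed levels kept their direction, or moved by less than the replicate spread, or stayed within 1.5 times the count. Directions did reverse for rows that were not called. Without K451R, Dox against Veh turned positive for SNORA76, SNORD13, SNORD15B, SNORA54, SNORD116-18 and SNORA71B; their ranges over the lines left out were -0.45 to 0.38, -0.42 to 0.34, -0.48 to 0.14, -0.69 to 0.38, -0.55 to 0.25 and -0.89 to 0.46, and SNORD64 ran from -0.30 to 0.24. With each siRNA sample left out, the siEHMT1 values ran from -0.67 to 0.29 for SNORD3A, -0.66 to 0.66 for SNORD13, -0.36 to 0.68 for SNORA71A, -0.35 to 0.65 for SNORA74A, -0.61 to 0.15 for SNORA80B, -0.21 to 0.16 for SNORD15B, -0.0092 to 0.21 for SNORA76, -0.059 to 0.69 for SNORD116-19, -0.90 to 1.196 for SNORD19, -0.33 to 0.71 for SNORD109A, -0.22 to 0.48 for SNORD64, -0.22 to 0.36 for SNORA79 and -0.28 to 0.51 for SNORA5A, which was also 0.024 with the replicate block. Following each row named in the text was chosen after seeing the data. Leaving out samples moved the summed log2 differences between siEHMT1 and siNTC from 0.28 to 0.49 for SNORA and from -0.22 to 0.24 for SNORD, and those between Dox and Veh from -0.27 to -0.081 and from -0.49 to -0.22. Rows with few counts limit precision: SNORA84 and SNORA7B rest on 3 to 29 counts a siRNA sample.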
